A study of Mus musculus with 6 samples.

Results

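AP-1 is a family of leucine-zipper transcription factors that bind DNA as dimers, built from FOS, JUN and related proteins. The 10 genes described here are the FOS genes Fos, Fosb, Fosl1 and Fosl2, the JUN genes Jun, Junb and Jund, and 3 related genes, Atf3, Maff and Batf. They were chosen by name, with earlier results of these data known, so that their direction is no independent evidence, and each was found under 1 Ensembl identifier among the 53953 rows that every library listed. RNA was sequenced from organoids of proximal small intestine of wild-type mice (strain C57BL/6 wt), at passages 3 to 5 in a Matrigel culture. The 3 vehicle libraries came from organoids given 0.1% ethanol and the 3 arachidonic acid libraries from organoids given the omega-6 fatty acid in the same solvent for 3 days and then passaged. RNA was collected on day 3 after passaging. The dose, the age and sex of the mice and whether each library had its own animal or culture are not stated in the sources used here. The p-values therefore measure only the spread between these 6 libraries, and that spread may be technical.

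JUN proteins can pair with each other or with FOS proteins, which do not form stable pairs among themselves and need a JUN partner to bind DNA. Fos, Fosb and Jun belong to the immediate-early genes, which growth factors and stress switch on within minutes through MAP kinases and whose messages decay fast, while Fosl1 and Fosl2 follow later and last longer. In the intestinal epithelium AP-1 is known for its part in proliferation, wound repair and tumour growth. Mouse organoids of this kind hold stem, Paneth, goblet, enteroendocrine and absorptive cells.

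The libraries held 35.6 to 50.8 M assigned fragments, a depth inferred from the smallest steps of the deposited FPKM (fragments per kilobase of gene length, scaled to the assigned fragments of the library). Mitochondrial transcripts took 3.12% to 4.10% of fragments with vehicle and 2.18% to 2.62% with arachidonic acid. On the first principal component of all tested genes the vehicle libraries lay at -41.6 to -40.4. Of the arachidonic acid libraries, replicate 1 lay at 10.2, apart from replicates 2 and 3, which lay at 58.1 and 54.6. Results that rest on replicate 1 are given with and without it. The 6 epithelial markers (Epcam, Cdh1, Krt8, Krt18, Krt19 and Vil1) summed to 2844 to 2970 FPKM with vehicle and 4271 to 5171 FPKM with arachidonic acid. The keratin genes Krt8, Krt18 and Krt19 carried that rise, for example Krt8 from 759 ± 24.8 to 1632 ± 189 FPKM, while Cdh1 and Vil1 did not pass. Epcam was lower, at 548 ± 19.0 and 361 ± 80.8 FPKM (limma adjusted p = 0.017), a call lost on leaving out any vehicle library or arachidonic acid replicates 2 or 3 (0.055 to 0.061). The 8 mesenchymal markers summed to 0.331 to 0.426 and 0.244 to 0.500 FPKM, and the 3 endothelial markers to at most 0.188 FPKM. The immune markers other than Cd68 summed to 0.189 to 0.291 FPKM with vehicle and 0.506 to 0.603 FPKM with arachidonic acid. Cd68, a lysosomal protein abundant in macrophages, was at 2.14, 2.02 and 1.53 FPKM with vehicle and 3.52, 23.9 and 16.8 FPKM with arachidonic acid. The part of these shifts in the results below was not tested.

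Start-site sequences were found for 9 of the 10 genes among the RefSeq promoters (build GRCm38.p6), in 11 windows of 250 bases before to 50 bases after a start; Fosl1 was not among them. The 5 shown here are those of Jun and Junb, whose ratio to each other is described with the JUN genes, and of Fos, Atf3 and Maff, which rose and whose windows hold a CRE core. Each runs 5′ to 3′ on the gene's strand from 180 bases before the start to 50 bases after it. Capitals mark matches, on either strand, to TGACGT (the core of the cyclic AMP response element, bound by CREB and ATF proteins), its full form TGACGTCA, TGACATCA and TTACCTCA (known as AP-1 and ATF sites of the Jun promoter) and the TATA box TATAAA.
Fos (chr12:85473710-85473939, plus strand): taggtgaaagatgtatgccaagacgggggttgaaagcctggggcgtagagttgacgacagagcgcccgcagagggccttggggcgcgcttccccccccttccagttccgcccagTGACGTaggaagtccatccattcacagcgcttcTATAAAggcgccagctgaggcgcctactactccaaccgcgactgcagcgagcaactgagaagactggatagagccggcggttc
Jun (chr4:95052173-95052402, minus strand): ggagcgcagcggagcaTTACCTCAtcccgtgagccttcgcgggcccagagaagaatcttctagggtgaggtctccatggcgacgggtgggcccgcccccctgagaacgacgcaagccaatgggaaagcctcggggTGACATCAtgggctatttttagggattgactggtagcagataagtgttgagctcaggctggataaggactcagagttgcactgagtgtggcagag
Junb (chr8:84978699-84978928, minus strand): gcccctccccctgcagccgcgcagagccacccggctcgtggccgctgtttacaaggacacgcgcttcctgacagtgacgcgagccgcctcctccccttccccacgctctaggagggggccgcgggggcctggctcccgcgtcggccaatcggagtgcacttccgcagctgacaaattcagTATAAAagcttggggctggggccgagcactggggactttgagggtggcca
Atf3 (chr1:191183284-191183513, minus strand): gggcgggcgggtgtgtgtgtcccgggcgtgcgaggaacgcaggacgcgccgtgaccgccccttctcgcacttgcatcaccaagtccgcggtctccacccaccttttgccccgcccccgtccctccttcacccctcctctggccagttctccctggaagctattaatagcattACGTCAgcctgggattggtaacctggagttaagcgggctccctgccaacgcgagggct
Maff (chr15:79347340-79347569, plus strand): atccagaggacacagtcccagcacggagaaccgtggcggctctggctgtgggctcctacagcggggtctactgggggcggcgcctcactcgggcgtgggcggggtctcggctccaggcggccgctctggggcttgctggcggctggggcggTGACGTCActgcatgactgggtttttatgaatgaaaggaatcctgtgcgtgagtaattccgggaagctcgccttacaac

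The full form TGACGTCA stood 29 bases before the second Maff start and the shorter TGACGT 66 bases before the Fos start. In Atf3 the core lay on the opposite strand, printed as ACGTCA, from 8 bases before the start. Jun held TTACCTCA 164 bases and TGACATCA 45 bases before its start. Another Maff start, not shown, also had TGACATCA 45 bases before it. TATAAA stood 33 bases before the Fos start, but in Junb it began at base 1 after the start. TGACGT, which is contained in the full form, was found in 4 of the 11 windows and in 7.51% of all 32851 RefSeq windows of the same length. These were windows of Fos, Atf3, Maff and Batf, in Batf 98 bases before the start. Batf was listed at 0 in every library, while Junb and Fosl2, which rose, had no TGACGT in their windows. TGACGTCA was in 1 of the 11 and 1.79% of all windows, TGACATCA in 2 and 3.62%, TTACCTCA in 1 and 0.889%, and TATAAA in 2 and 13.6%. The classical AP-1 site TGACTCA was in none of the 11 and in 5.20% of all, and the CArG box, the site of serum response factor, in none and in 1.63%. Sites more than 250 bases before a start were not searched, so these absences hold for the windows alone and not for the whole promoters. These letters describe the windows and say nothing of what was bound in the organoids.

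Of the 10 genes, 6 rose with arachidonic acid: Fosl1, Fos, Maff, Junb, Atf3 and Fosl2. Jun and Jund did not pass the test, and Fosb and Batf, under a mean of 1 FPKM over the 6 libraries, were not tested. The 6 that rose lay wholly above vehicle in the arachidonic acid libraries. By limma on log2(FPKM + 1) with Benjamini-Hochberg adjustment over 12913 genes, 40.2% of all tested genes were called at an adjusted p under 0.05, 20.8% higher and 19.4% lower. The groups did not overlap for 55% of all tested genes, with arachidonic acid above for 27.6% and below for 27.5%. The median log2 fold change, arachidonic acid minus vehicle, was 1.20 over the 8 tested AP-1 genes and -0.03 over all tested genes. Fosl1 was tested only for its values with arachidonic acid, being under 1 FPKM with vehicle, and a gene admitted in this way had to differ. In bulk RNA a change in the share of a cell type and a change in the RNA per cell cannot be told apart.

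**Figure D1:**
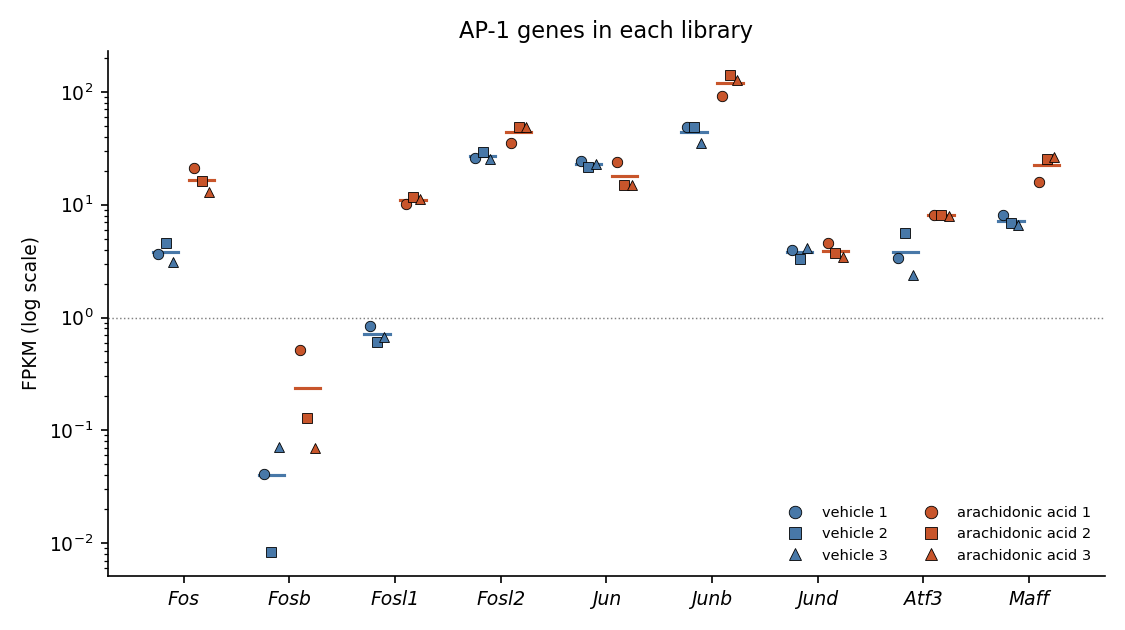
Each point is 1 library, with FPKM on a log axis, for the 9 AP-1 genes above 0; bars are group means, symbols give the replicate number, and the dotted line is 1 FPKM. Fosl1 moved from 0.609 to 0.847 FPKM in the vehicle libraries to 10.2 to 11.6 FPKM with arachidonic acid, while the groups overlap for Jun, Jund and Fosb.

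Fosl1 (ENSMUSG00000024912) encodes FRA-1, a FOS protein without the C-terminal activation domain of Fos that is known from invasive and migrating epithelial cells. It stood at 0.847, 0.609 and 0.669 FPKM in vehicle replicates 1 to 3 and at 10.2, 11.6 and 11.3 FPKM in arachidonic acid replicates 1 to 3. All arachidonic acid libraries were above all vehicle libraries and close to each other, with replicate 1 near its group. The means were 0.708 ± 0.124 and 11.0 ± 0.736 FPKM (SD, n = 3 in each group throughout), a ratio of 15.6. On the scale of log2(FPKM + 1), which understates low genes, its fold change was 2.82 (SE 0.11, limma adjusted p = 8.7e-05), against 3.79 with a pseudocount of 0.1 and 3.95 with limma-voom on recovered fragments. For Fosl1 those fragments were not whole numbers, at 28.7, 20.2 and 23.3 with vehicle, and were rounded for that fit. In the GENCODE annotation M21, 57.2% of the exonic bases of Fosl1 are shared with Ccdc85b on the opposite strand, and whether fragments were counted by strand is not known. Ccdc85b itself was at 41.6 ± 5.88 and 44.0 ± 3.37 FPKM and did not pass the test (limma adjusted p = 0.57).

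Fos (ENSMUSG00000021250), the immediate-early gene that names the family, was at 3.65, 4.53 and 3.14 FPKM with vehicle and 20.96, 16.2 and 13.1 FPKM with arachidonic acid. The groups did not overlap, and the highest library was arachidonic acid replicate 1. The means of 3.77 ± 0.707 and 16.7 ± 3.98 FPKM gave a log2 fold change of 1.88 (SE 0.19, limma adjusted p = 0.0012). Without arachidonic acid replicate 1 the log2 fold change of Fos was 1.71.

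Fosl2 (ENSMUSG00000029135) encodes FRA-2, a FOS protein that like FRA-1 lacks the strong activation domain. It was the most abundant FOS gene in every library, at 26.0, 29.2 and 25.3 FPKM with vehicle and 35.3, 49.2 and 48.6 FPKM with arachidonic acid. Arachidonic acid replicate 1 lay between vehicle and the other arachidonic acid libraries without reaching vehicle. The log2 fold change of Fosl2 was 0.69 (SE 0.14, limma adjusted p = 0.0095).

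Fosb (ENSMUSG00000003545), an immediate-early gene like Fos, was nearly silent, at 0.0409, 0.00836 and 0.0714 FPKM with vehicle and 0.518, 0.129 and 0.0693 FPKM with arachidonic acid. These values stood for 5, 1 and 9 fragments and for 86, 15 and 11 fragments. Most of the arachidonic acid signal of Fosb was in replicate 1, and replicate 3 lay below the highest vehicle library, so the groups overlap.

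The FOS genes summed to 31.3 ± 2.69 FPKM with vehicle and 72.3 ± 5.08 FPKM with arachidonic acid, and their mix changed with the sum. FPKM are per length, but the exons that Fosl1 shares with Ccdc85b leave its level, and so its share, uncertain. Fosl1 made up 2.78%, 1.77% and 2.29% of the summed FOS FPKM with vehicle and 15.3%, 15.1% and 15.5% with arachidonic acid. The share of Fos went from 11.98% ± 1.22 to 23.4% ± 7.03 and was highest, at 31.3%, in arachidonic acid replicate 1. The difference in the Fos share was 11.4 percentage points with that library and 7.45 without it. Fosl2 held 85.6% ± 0.954 of the sum with vehicle and 61.0% ± 7.34 with arachidonic acid, although its own level rose. The shares of Fosl1, Fos and Fosl2 did not overlap between the groups. The ratio of Fosl2 to Fosl1 was 30.7, 47.9 and 37.8 with vehicle and 3.45, 4.23 and 4.29 with arachidonic acid.

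**Figure D2:**
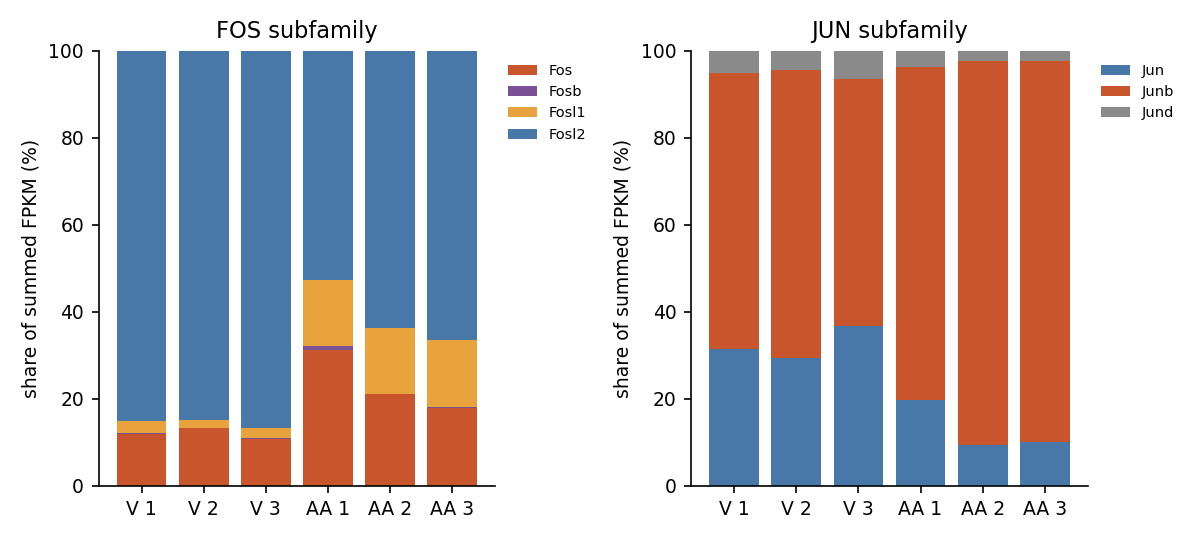
Bars give, for each library (V, vehicle; AA, arachidonic acid), the share in percent of each gene in the summed FPKM of the FOS genes (left) and the JUN genes (right). On average Fosl1 made up 2.28% of the FOS sum with vehicle and 15.3% with arachidonic acid. The share of Jun in the JUN sum was 32.5% and 13.1%, although the level of Jun did not pass the test. Exons shared with antisense genes leave the levels of Fosl1 and Jund, and so these shares, uncertain.

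Junb (ENSMUSG00000052837) encodes a JUN protein with weaker activation than Jun on single AP-1 sites and able to antagonise it. By listed FPKM Junb was the most abundant of the 10 genes in both groups, a rank that takes the uncertain level of Jund as listed. Its level was 49.0, 48.6 and 35.5 FPKM with vehicle and 93.0, 143 and 128 FPKM with arachidonic acid. The lowest arachidonic acid library, replicate 1, was still well above the highest vehicle library. The log2 fold change of Junb was 1.42 (SE 0.19, limma adjusted p = 0.0027). In the annotation 7.52% of the exonic bases of Junb are shared with Prdx2, a peroxiredoxin gene on the opposite strand. Prdx2 was at 237 ± 3.70 and 178 ± 19.4 FPKM and was called lower (log2 fold change -0.41, limma adjusted p = 0.011).

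Jun (ENSMUSG00000052684), whose protein is the main partner of Fos, was at 24.2, 21.6 and 23.0 FPKM with vehicle and 24.0, 15.1 and 14.8 FPKM with arachidonic acid. Replicate 1 lay within the vehicle range while replicates 2 and 3 were below it. With all libraries Jun did not pass (log2 fold change -0.37, 95% interval -0.79 to 0.06, limma adjusted p = 0.14). Without arachidonic acid replicate 1 it was called lower, at -0.58 (limma adjusted p = 0.00027). The antisense gene Junos shares 7.28% of the exonic bases of Jun and was at 1.68 ± 0.324 and 2.25 ± 0.907 FPKM. Junos did not pass with all libraries (limma adjusted p = 0.44) and was called higher without arachidonic acid replicate 1 (0.020).

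Jund (ENSMUSG00000071076), the JUN gene known for steady expression in resting cells, was at 3.995, 3.31 and 4.14 FPKM with vehicle and 4.59, 3.71 and 3.47 FPKM with arachidonic acid. The groups overlapped, and the difference was 0.03 with a 95% interval of -0.28 to 0.34 (limma adjusted p = 0.87). The annotation places the antisense gene Gm11175 over 52.6% of the exonic bases of Jund. Gm11175 was listed at 0 in all 6 libraries, and the level of Jund, which had 202 to 389 fragments, is uncertain because the treatment of shared exons is not known.

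Junb made up 62.1% ± 4.92 of the summed JUN FPKM with vehicle and 84.1% ± 6.61 with arachidonic acid, and Jun 32.5% ± 3.84 and 13.1% ± 5.77. The sum itself was 71.1 ± 7.56 and 143 ± 20.1 FPKM. The exons that Jund shares with Gm11175 leave its level, and so this sum and these shares, uncertain. Junb exceeded Jun 2.03, 2.26 and 1.54 times in the vehicle libraries. With arachidonic acid it did so 3.88 times in replicate 1 and 9.45 and 8.65 times in replicates 2 and 3. The shares of Jun, Junb and Jund did not overlap between the groups. Shares of the same sum are tied, so a rise of Junb alone lowers the other shares. The levels of Jun and Jund themselves overlapped between the groups and did not pass the test.

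Maff (ENSMUSG00000042622) encodes a small MAF protein, which has a leucine zipper but no activation domain and pairs with NRF2 and BACH proteins among others. It was at 8.16, 6.84 and 6.57 FPKM with vehicle and 15.8, 25.4 and 26.3 FPKM with arachidonic acid. Replicate 1 again lay between vehicle and replicates 2 and 3. The log2 fold change of Maff was 1.49 (SE 0.20, limma adjusted p = 0.0027).

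Atf3 (ENSMUSG00000026628), a stress-induced factor that pairs with JUN proteins, was at 3.37, 5.66 and 2.40 FPKM with vehicle and 8.09, 8.09 and 7.98 FPKM with arachidonic acid. The arachidonic acid libraries were nearly equal and the vehicle libraries spread widely beneath them. The log2 fold change of Atf3 was 0.97 (SE 0.23, limma adjusted p = 0.017). Its call was lost without vehicle replicate 1 (limma adjusted p = 0.068), without arachidonic acid replicates 2 or 3 (0.053 and 0.054) and with no filter on low values (0.0514). Batf (ENSMUSG00000034266), a factor of lymphoid and myeloid cells, was listed at 0 in all 6 libraries, where 3 fragments would give 0.0795 to 0.113 FPKM.

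**Figure D3:**
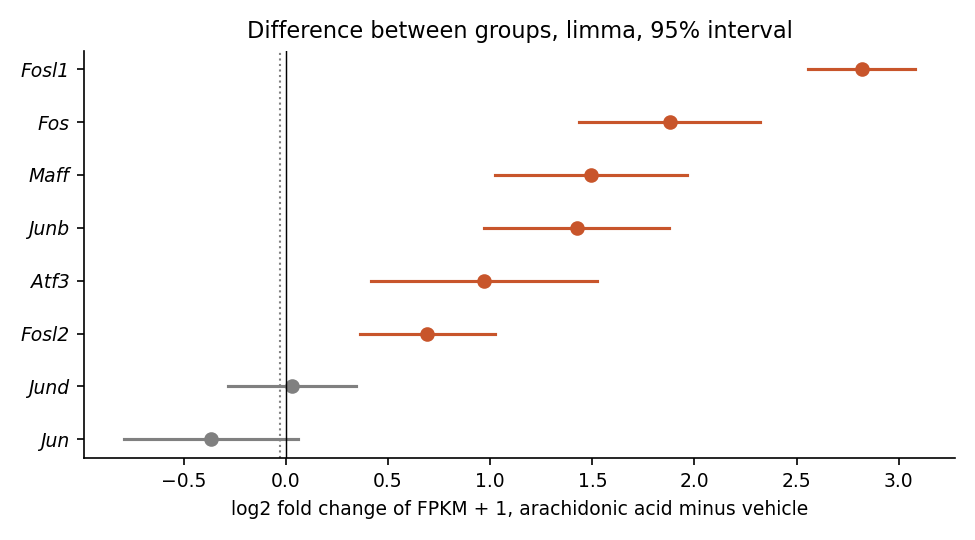
Points are limma log2 fold changes of FPKM + 1, arachidonic acid minus vehicle, with 95% intervals, for the 8 tested AP-1 genes; the dotted line is the median of all tested genes, -0.03. The intervals of Fosl1, Fos, Maff, Junb, Atf3 and Fosl2 lie above 0, and those of Jund and Jun include 0.

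With vehicle the levels ran in the order Junb, Fosl2, Jun, Maff, Jund, Atf3, Fos, Fosl1, Fosb and Batf. Jund, Atf3 and Fos, all near 3.8 FPKM, did not differ beyond their spread, and for every other pair of neighbours the library ranges were apart. With arachidonic acid the order was Junb, Fosl2, Maff, Jun, Fos, Fosl1, Atf3, Jund, Fosb and Batf. There the ranges of Maff and Jun and those of Jun and Fos overlapped. Fosl1 was below Atf3 and Jund with vehicle and above both with arachidonic acid, an order that rests on the uncertain levels of Fosl1 and Jund.

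The position of arachidonic acid replicate 1 differed among the genes that rose. On a scale where the vehicle mean is 0 and the mean of arachidonic acid replicates 2 and 3 is 1, in FPKM, it stood at 0.38 for Fosl2, 0.46 for Maff and 0.53 for Junb. Fosl1 was at 0.88, Atf3 at 1.012 and Fos at 1.59. Egr1, an immediate-early zinc finger gene chosen after its values were seen, was at 5.16, 7.48 and 4.19 FPKM with vehicle and 13.7, 5.99 and 6.17 FPKM with arachidonic acid, and did not pass (limma adjusted p = 0.27). Fosb, Fos and Egr1, and also Jun and Jund, had replicate 1 as their highest arachidonic acid library, while Fosl1, Fosl2, Junb and Maff had it as their lowest. Of the 17 tested genes of the list of other immediate-early genes, which holds Egr1, replicate 1 was the highest arachidonic acid library for 5 and the lowest for 9. With 1 library apart, this order has no replicate and was not tested.

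**Figure D4:**
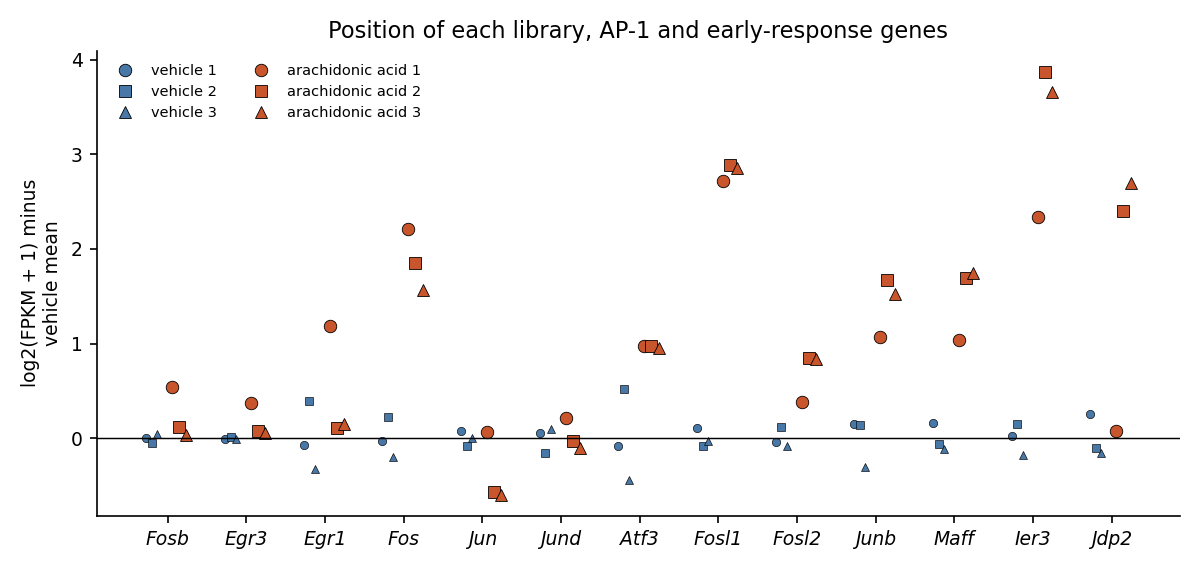
Points are log2(FPKM + 1) minus the mean of the vehicle libraries for each library (small, vehicle; large, arachidonic acid; symbols give the replicate number). Replicate 1 of arachidonic acid, the circle, is the highest of its group for Fosb, Egr3, Egr1, Fos, Jun and Jund and the lowest for Fosl1, Fosl2, Junb, Maff, Ier3 and Jdp2. Egr3, Egr1 and Jdp2 were picked after their values were seen, and most other immediate-early genes of the list are not drawn. Egr3 was too low to be tested, at 0.297, 0.0573 and 0.0420 FPKM in arachidonic acid replicates 1 to 3.

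Other leucine-zipper genes that can pair with AP-1 proteins or compete with them went both ways. Of 23 such genes 19 were tested, 6 rose and 5 fell, beside 20.8% and 19.4% of all tested genes, with a median of 0.08. The number called lower was 2 whenever a library other than arachidonic acid replicate 1 was left out, and 3 with no filter on low values. Nfe2l2, which encodes NRF2, the activator of antioxidant genes, rose from 81.2 ± 6.25 to 126 ± 7.12 FPKM (limma log2 fold change 0.63, SE 0.08, adjusted p = 0.0024). Atf6, a sensor of protein folding in the endoplasmic reticulum, rose from 9.58 ± 0.694 to 15.5 ± 1.90 FPKM. Atf5 fell from 150.1 ± 14.2 to 70.0 ± 10.4 FPKM (limma log2 fold change -1.10, SE 0.12, adjusted p = 0.0016). Cebpg, a partner of ATF4, fell from 56.1 ± 1.22 to 44.1 ± 0.553 FPKM.

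The other small MAF genes, Mafg and Mafk, are closest to Maff, and they, Jdp2, Ddit3 and Batf2 are named after their values were seen. Mafg rose from 56.3 ± 2.39 to 107 ± 25.7 FPKM, so that it stayed above Maff. Mafk was at 26.1 ± 1.25 and 31.3 ± 1.497 FPKM, with a limma adjusted p of 0.029 that was lost with quantile normalization (0.0506) and on leaving out either of arachidonic acid replicates 2 and 3 or any vehicle library (0.060 to 0.11). Jdp2, which encodes a repressor that pairs with JUN proteins, was at 1.24, 0.737 and 0.679 FPKM with vehicle and 0.970, 8.89 and 11.1 FPKM with arachidonic acid. Replicate 1 was thus at the vehicle level and Jdp2 did not pass (limma adjusted p = 0.074), but without that library it was called higher, at 2.55 on the log2 scale (limma adjusted p = 7.3e-06). With a vehicle mean of 0.884 FPKM, Jdp2 entered the test only through arachidonic acid replicates 2 and 3. Its call without replicate 1 is therefore no independent evidence. Ddit3, a stress-induced partner of Atf3, rose from 27.1 ± 7.55 to 63.0 ± 20.5 FPKM (limma adjusted p = 0.022), a call lost without vehicle replicates 1 or 3 or arachidonic acid replicates 2 or 3 (0.059 to 0.074) and with no filter on low values (0.061). Batf2, too low to be tested, was at 0.306, 0.182 and 0.198 FPKM with vehicle and 1.41, 1.77 and 1.67 FPKM with arachidonic acid.

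MAP kinases phosphorylate FOS and JUN proteins and the factors that switch their genes on. Of 24 genes of the ERK, JNK and p38 cascades 21 were tested, 5 rose and 2 fell, against 20.8% and 19.4% of all tested genes, with a median of 0.08. Map2k1 and Map2k2, which encode the kinases MEK1 and MEK2 that activate ERK, rose from 100.4 ± 5.40 to 155 ± 14.3 FPKM (limma log2 fold change 0.62, SE 0.09, adjusted p = 0.0030) and from 184 ± 8.48 to 233 ± 2.17 FPKM. Map3k5, a stress-activated kinase upstream of JNK and p38, rose from 13.9 ± 0.518 to 18.7 ± 1.04 FPKM. Map2k6, an activator of p38, fell from 13.1 ± 0.853 to 7.44 ± 0.521 FPKM (limma log2 fold change -0.74, SE 0.09, adjusted p = 0.0020). Map3k11 also fell, a gene named after its values were seen, and was at -0.41 (limma adjusted p = 0.023). It lost its call on leaving out any vehicle library or arachidonic acid replicates 2 or 3 (0.054 to 0.083), which left 1 lower gene in the list, and with no filter (0.051). Without arachidonic acid replicate 1, 4 of the 21 tested genes of the list were lower, where 4192 of all 12947 tested genes were.

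Phosphatases that switch MAP kinases off, and factors that degrade AP-1 proteins or their messages, numbered 6 higher and 2 lower of 19 tested, of 21 listed, where 20.8% and 19.4% of all tested genes were so called. The 4 with the smallest p were all dual-specificity phosphatase genes that rose. Dusp5, which holds ERK in the nucleus, rose from 10.5 ± 0.930 to 18.6 ± 1.02 FPKM (limma log2 fold change 0.77, SE 0.09, adjusted p = 0.0018). Dusp1, itself an immediate-early gene, was at 1.45, 1.64 and 1.302 FPKM with vehicle and 4.44, 9.71 and 6.64 FPKM with arachidonic acid. Dusp4 rose from 19.8 ± 0.449 to 60.3 ± 19.6 FPKM and Dusp6, the cytoplasmic ERK phosphatase, from 6.58 ± 0.476 to 19.4 ± 6.19 FPKM. Dusp7 and Dusp16, named after their values were seen, fell by 0.32 and 0.75 on the log2 scale. Their calls were lost without vehicle replicate 1 (limma adjusted p = 0.053) and without vehicle replicate 3 (0.0508), respectively. Without arachidonic acid replicate 1 the list held 5 lower genes of 19 tested, where 4192 of all 12947 tested genes were lower. Dusp10, a further gene picked with its values known, rose from 0.721 ± 0.214 to 1.98 ± 0.107 FPKM and was admitted to the test by its arachidonic acid values alone.

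Serum response factor and its ternary complex partners, the ELK proteins, carry the ERK signal to the Fos and Egr1 promoters. A list of 8 genes held these, the coactivators Mrtfa and Mrtfb and the ETS factors Ets1 and Ets2. Of them 7 were tested and 1 rose, where 20.8% of all tested genes did. Ets2, an ERK-activated ETS factor, went from 91.6 ± 6.85 to 147 ± 11.97 FPKM (limma log2 fold change 0.68, SE 0.09, adjusted p = 0.0024). Elk1 was at 3.82 ± 0.438 and 3.30 ± 0.398 FPKM and Elk4 at 21.6 ± 1.80 and 23.0 ± 2.09 FPKM, and neither passed. Mrtfb, a coactivator of serum response factor, did not pass either (log2 fold change -0.22, limma adjusted p = 0.074) but was called lower without arachidonic acid replicate 1 (0.015) and with quantile normalization (0.038). Srf itself, named after its values were seen, was at 17.3 ± 0.657 and 16.7 ± 2.44 FPKM (limma adjusted p = 0.68). Without vehicle replicate 2, with no filter and with TPM rescaling 2 genes of the list were higher.

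Of 22 other immediate-early genes 17 were tested, 11 rose and 4 fell, beside 20.8% and 19.4% of all tested genes, with a median of 0.56. The 11 include Ccn2, named after its values were seen, which was at 0.0101 ± 0.00873 FPKM with vehicle and entered the test through its arachidonic acid values. With a minimum mean of 5 FPKM, which tests fewer of them, 7 were higher. Ier3 rose from 5.56, 6.14 and 4.72 FPKM to 31.7, 93.3 and 80.5 FPKM (limma log2 fold change 3.29, SE 0.38, adjusted p = 0.0018). Gadd45b, a growth arrest gene, rose from 28.5 ± 1.72 to 61.5 ± 9.48 FPKM and Nr4a1, an orphan nuclear receptor, from 2.07 ± 0.319 to 5.89 ± 0.808 FPKM. Ccn1, a secreted matrix protein, rose from 1.76 ± 0.148 to 5.57 ± 0.924 FPKM. Nr4a2, Nfkbiz, Ier2 and Btg2, chosen for naming once values were known, fell by 0.56, 0.54, 0.52 and 0.21 on the log2 scale. On leaving out any vehicle library or arachidonic acid replicates 2 or 3, the calls of Ier2 (limma adjusted p = 0.0586 to 0.098) and Btg2 (0.059 to 0.14) were lost and 2 genes were lower. The call of Ier2 was also lost with no filter (0.066) and that of Btg2 with TPM rescaling (0.10).

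Genes known as AP-1 targets in other systems, from invasion and wound repair to cornified envelopes, were often too low to test. Of 24 listed 13 were tested, 9 rose and 1 fell, where 20.8% and 19.4% of all tested genes did. Of the 13, 3 had a vehicle mean below 1 FPKM and entered the test through their arachidonic acid values. Sprr1a and Tgfb1 are among them, named after their values were seen, and both were called higher, but Tgfb1 lost its call without vehicle replicate 1 (limma adjusted p = 0.052). The list was drawn up with earlier results of these data known, so its direction is no independent evidence. Plaur, the urokinase receptor, rose from 1.94, 2.08 and 1.37 FPKM to 35.9, 69.4 and 72.8 FPKM (limma log2 fold change 4.37, SE 0.27, adjusted p = 0.00041). Cd44, a hyaluronan receptor, Hbegf, a ligand of the EGF receptor, and the cyclin gene Ccnd1 rose by 1.64, 1.49 and 2.54 on the log2 scale. The stromelysin genes Mmp3 and Mmp10, and the collagenase gene Mmp13, are also named after their values were seen. Mmp3 and Mmp10 were listed at 0 in all libraries and Mmp13 was listed at 0 in all but arachidonic acid replicate 2, which held 0.0105 FPKM. Mmp14, the gene that fell, named after its values were seen, was at 43.6 ± 2.03 and 36.4 ± 2.87 FPKM (limma adjusted p = 0.039). Its call was lost without any 1 vehicle library or arachidonic acid replicate 3 (0.066 to 0.13), with no filter (0.063), with TPM rescaling (0.11) and with median-of-ratios scaling (0.066).

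**Figure D5:**
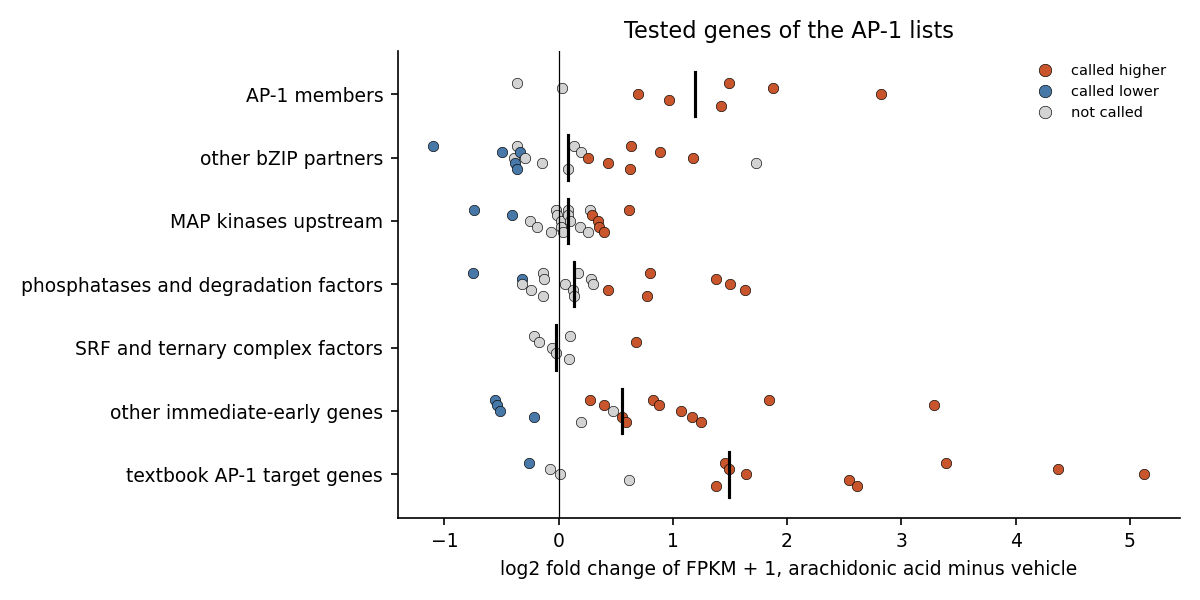
Each point is 1 tested gene by its log2 fold change of FPKM + 1, arachidonic acid minus vehicle, for the AP-1 genes and 6 lists around them; black bars are medians and colours give the limma call. The medians are 1.20 for the AP-1 genes, 0.08 for the partners and for the MAP kinases and 0.14 for the phosphatases and degradation factors. They are -0.02 for serum response factor and ternary complex factors, 0.56 for other immediate-early genes and 1.49 for the textbook targets. Of the textbook targets 11 were too low to be tested. Over all tested genes the median is -0.03.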

How the data were processed

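The deposited values are FPKM that the authors computed, as inferred from the values: FPKM times the mean transcript length of GENCODE M21 gave whole fragments, within 0.1 of a whole number for 96.3% to 96.7% of the low values, once divided by a step found for each library. For Fosl1, Fosl2, Junb and Maff the fragments were not whole in this way. The tools named per the submitters' processing notes, with no role, were featureCounts 1.5.0-p3, HISAT2 2.0.5 and StringTie 1.3.3b. Build, annotation and strand setting: not given in the sources used here. Values of genes whose 6-library mean reached 1 FPKM were taken as log2(FPKM + 1) and tested with limma 3.58.1 (R 4.3.3) with a variance trend, two-sided, with Benjamini-Hochberg adjustment over all tested genes and a threshold of 0.05. The method was tested on simulated data. Whether the replicate numbers pair the libraries is not stated, so the main fit held no block. The named genes are all 10 members and, from each other list, up to 4 tested genes with the smallest p; others are said to be named after their values were seen. The members and lists were chosen with earlier results of these data known. Alternatives were another pseudocount, no filter, a minimum mean of 5 FPKM, 3 scalings, limma-voom, a replicate block and leaving out each library. Python 3.11.15 with pandas 2.3.3 and matplotlib 3.10.9 made the summaries.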

Additional observations from a re-analysis of the deposited data

How the results depend on the processing

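With each library left out in turn, between 1712 and 3554 genes of the whole table were called higher and between 1245 and 4192 lower, against 2690 and 2502 with all libraries, and both maxima came without arachidonic acid replicate 1. Among the AP-1 genes 0 were lower with all libraries and 1, Jun, without that replicate. The genes of the 6 surrounding lists called lower numbered 14 with all libraries and 6 to 22 with 1 left out. With 1 library left out the log2 fold change of Jund ranged from -0.066 (without arachidonic acid replicate 1) to 0.096, also changing sign without vehicle replicate 2 (-0.048), and that of Srf from -0.17 to 0.011 (without arachidonic acid replicate 3), with no call in any of these. The difference in the Fosb share of the FOS sum was 0.211 percentage points with all libraries and -0.00336 to 0.336 with 1 left out, lowest without arachidonic acid replicate 1. Of the 111 alternative values for the 8 tested AP-1 genes, 104 kept direction and side of the threshold; the others are those of Jun, Jund and Atf3 given here or above. Whether libraries of the same replicate number were paired is not stated. Over all tested genes, same-numbered residuals correlated at -0.081, 0.21 and -0.062, and not every library correlated best with its own number. With 3 libraries in each group these correlations cannot settle the pairing. The replicate block kept the 6 AP-1 calls, with Fos at 1.88 (limma adjusted p = 0.0049), gave 2263 higher and 1998 lower genes in all, and lost the calls of Mafk (0.081) and Btg2 (0.0898). Counts of Fosb (1 to 86 fragments) and Jund (202 to 389) limit their precision. The cause of these changes was not tested.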
